A study of Danio rerio with 11 samples.

Results

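The lens crystallins are the proteins that fill the fibre cells of the eye lens, and 56 of the 27625 genes with a deposited value belonged to them. They were taken as every gene whose Ensembl zebrafish symbol begins with crya, cryb or cryg, without regard to case and leaving out the crybg genes, which code for proteins of another kind. The symbol table held 57 such genes, and the remaining gene, crygm6, was not analysed here. By name, 3 genes were alpha crystallins, 7 were beta A, 6 were beta B, 31 were gamma M, 3 were gamma MX (crygmx, crygmxl1 and crygmxl2), 2 were gamma N and 4 were gamma S.

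Expression was measured by RNA sequencing of whole wild-type zebrafish larvae of the AB strain at 120 h after fertilization. The parents of the larvae had spent 30 days in dibutyl phthalate (DBP), in its branched isomer diisobutyl phthalate (DiBP), in both agents (called the combined exposure here) or in neither. Both chemicals are plasticizers, and their concentrations, and whether they matched, are not given in the sources used here. The 11 libraries were 2 controls and 3 for each exposure, and the larvae themselves are labelled only by the agent their parents received. Nothing in the labels says how many larvae or parents stand behind a library, so p-values measure the spread between these libraries, which may be technical.

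Alpha crystallins are small heat shock proteins that keep other lens proteins soluble. Beta and gamma crystallins share a fold and give the lens its refractive index, the beta proteins as oligomers and the gamma proteins as monomers. Gamma M crystallins are the methionine-rich forms that dominate the dense lens of fish and are coded by a large cluster of similar genes, while gamma N is a form between beta and gamma and gamma S is the form prominent in mammals. Values are FPKM, fragment numbers divided by gene length and library total, so levels of different genes can be set side by side per length. The gamma M copies are so alike that reads can be shared between them, and their individual values are uncertain, because how shared reads were counted is not given in the sources used here. No sequence of these copies was read here, so how alike they are was not computed. The 4 symbols CRYAB, CRYBA2, CRYGN and CRYGS each stand for 2 genes in the files, which are told apart by their Ensembl identifiers.

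Recovered read totals lay between 13396589 and 15381114 per library, and 46 of the 56 crystallin genes were among the 19465 genes with enough reads to test. The 2 controls were unlike each other, with 2338 of the tested genes, or 12.0%, at least 2-fold apart, against 362 to 563 genes in pairs within the DBP and DiBP groups and 371 between combined libraries 1 and 2. Combined library 3 differed 2-fold from its 2 partners at 1236 and 1219 genes. Both facts bear directly on the crystallins, so control library 1 and combined library 3 are given separately throughout.

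Control library 1 held far more crystallin RNA than any other library. Crystallin genes took 7.61% of all its reads, against 1.22% in control library 2. The share was 0.963, 0.937 and 0.852% after DBP, 0.586, 0.554 and 0.669% after DiBP, and 0.877, 0.810 and 0.515% in combined libraries 1 to 3. Leaving control library 1 aside, control library 2 was the highest, the DBP libraries came next together with combined libraries 1 and 2, and the DiBP libraries were low together with combined library 3. Because whole larvae were sequenced, fewer lens cells and less RNA per lens cell cannot be told apart in any of these values.

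**Figure D1:**
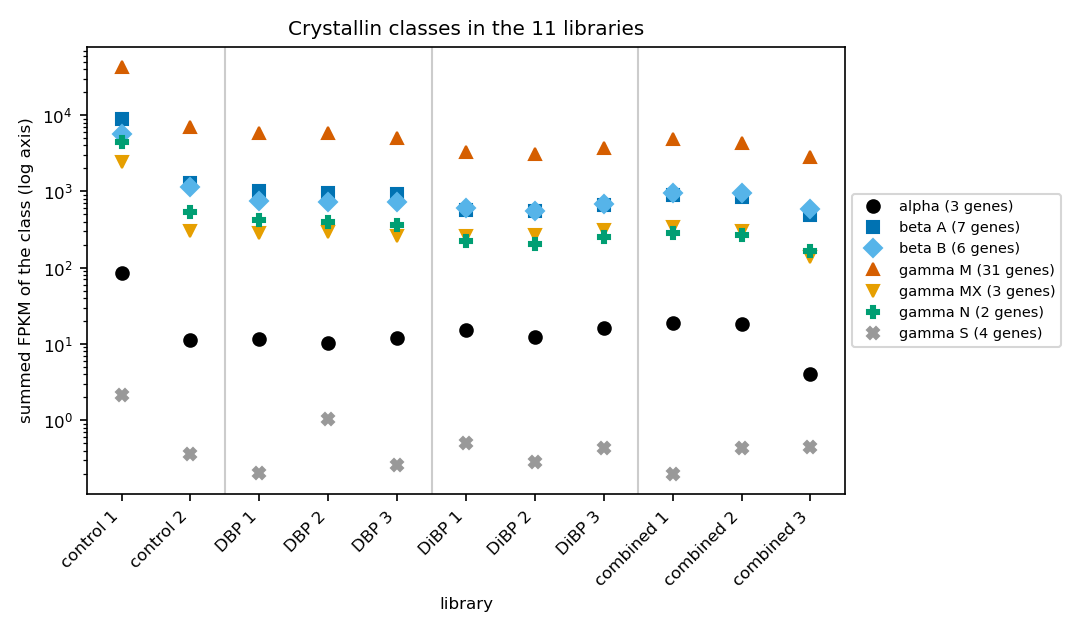
Summed FPKM of each crystallin class (log axis) in each of the 11 libraries (horizontal axis), with 1 symbol per class and library. Control library 1 lies above every other library in all 7 classes, with 42336 against 7023 FPKM in control library 2 for gamma M, and the alpha class drops to 4.01 FPKM in combined library 3.

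The gamma M class was the most abundant in all 11 libraries. Its summed level was 42336 and 7023 FPKM in the controls, 5834, 5854 and 4998 after DBP, 3289, 3092 and 3689.8 after DiBP, and 4809, 4269 and 2863 in the combined libraries. The DBP values lay above the DiBP values with no overlap, and the combined libraries ran from below the DiBP range to above it. Beta A genes summed to 8781 and 1280.3 FPKM in the controls, 1011, 939.8 and 927 after DBP, 575, 557 and 664 after DiBP and 885, 832 and 496 after the combined exposure, in the same order of groups. Beta B genes, at 5651 and 1140.0, 752, 716 and 722, 613, 559 and 694 and 967, 962 and 584 FPKM in the same sequence of groups, separated DBP from DiBP by far less, and combined libraries 1 and 2 were above every DBP library. The order of the groups was thus not the same in every class.

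Gamma N genes summed to 4424 and 529.8 FPKM in the controls, 423, 397 and 363 after DBP, 221, 206 and 256 after DiBP and 281, 269 and 166 after the combined exposure. Gamma MX genes summed to 2459 and 307, 286, 292 and 263, 264, 264 and 313 and 345, 306 and 137 FPKM, with overlapping DBP and DiBP groups. Alpha genes were scarce, at 86.4 and 11.3 FPKM in the controls, 11.7, 10.4 and 12.1 after DBP, 15.2, 12.5 and 15.9 after DiBP, and 18.97, 18.3 and 4.01 in the combined libraries, where the third was the lowest of all 11. Gamma S genes summed to between 0.198 and 2.13 FPKM, which is too few reads to test. Of the reads on crystallin genes, beta B took 17.7 and 19.5% in the controls, 16.5, 15.9 and 17.97% after DBP, 20.8, 20.2 and 20.96% after DiBP and 21.97, 23.6 and 22.9% after the combined exposure. These shares do not overlap among the 3 exposed groups. Gamma M took between 49.0% and 56.7% in all 11 libraries.

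The excess in control library 1 reached nearly every tested crystallin. It exceeded control library 2 by at least 2-fold at 44 of 46 genes, where 2.28% of all tested genes did so, and by at least 4-fold at 38, where 0.560% of all tested genes did. The median ratio was 6.31, from 0.559 for CRYBB3 to 14.6 for crygm7. The same 44 of 46 genes had their highest value of the 11 libraries there, against 21.1% of all tested genes, and the 2 exceptions were CRYBB3 and CRYAB (ENSDARG00000101380), both listed below 1 FPKM in that library. Median ratios were 6.73 for beta A, 3.93 for beta B and 6.14 for gamma M. The beta B median is the ratio of crybb1l3, which had only 23 and 6 reads in control libraries 1 and 2. The abundant CRYBB1, crybb1l1 and crybb1l2 had ratios of 3.64, 5.92 and 6.55. All 21 genes crygm2d1 to crygm2d21 were at least 3.31-fold higher in control library 1.

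Markers of other tissues were also unusual in control library 1, and their part in the crystallin values was not tested. A list of 31 lens genes that are no crystallins, of which 30 were found as 33 genes, summed to 1229 FPKM in control library 1 and to 305 to 406 FPKM in the other 10 libraries. This sum mixes unlike genes: PAX6 (ENSDARG00000103379) had 67.5 and 50.7 FPKM in control libraries 1 and 2, and BFSP2 208 and 19.7. After composition scaling, with 0.1 FPKM added, 16 of the 29 tested were at least 2-fold higher in control library 1 than in control library 2. At least 4-fold higher were 12, against 2.28% and 0.560% of all tested genes. Skeletal muscle genes (18 of 20 names found) summed to 9802 FPKM there against 30718 to 48105, and skin genes (16 of 16) to 1295 against 3124 to 5416. Exocrine pancreas genes (13 of 15) summed to 451 FPKM against 765 to 1899, and photoreceptor genes (19 of 22) to 1556 against 2115 to 3837. The 13 mitochondrially encoded genes were higher there, at 96442 FPKM against 64143 to 74050. Retinal genes other than those of photoreceptors (10 of 10) summed to between 911 and 1024 FPKM in all 11 libraries. This sum mixes unlike genes too. Of its 12 tested genes, 4 were called lower and 1 higher with DiBP against control in the fit of all libraries, against 14.0% and 15.8% of all tested genes. In these lists, 0 genes were at 0 in every library.

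**Figure D2:**
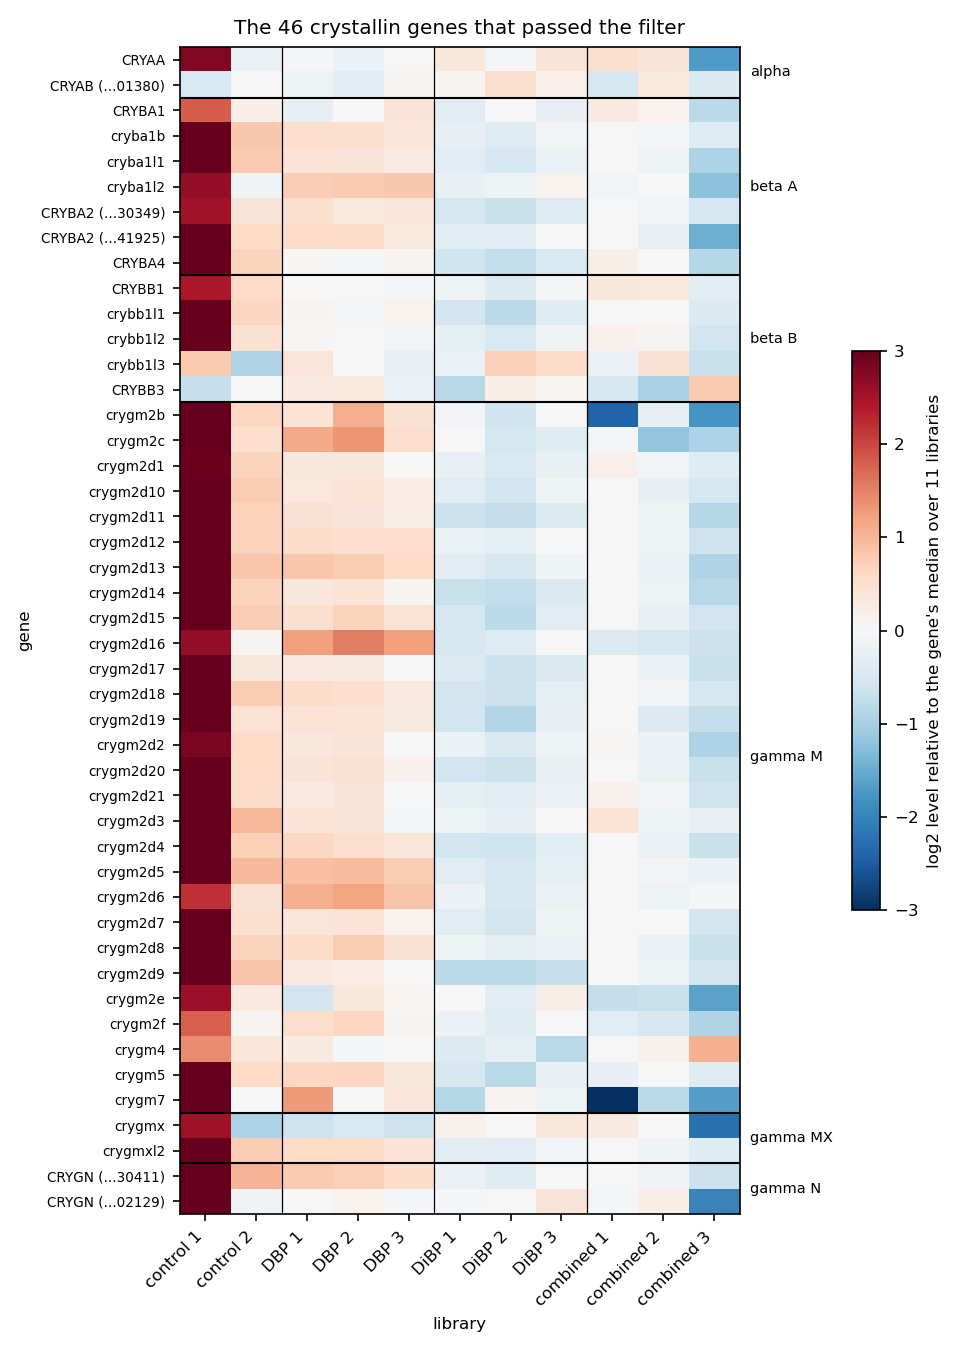
Level of each of the 46 tested crystallin genes (vertical axis, grouped by class) in each of the 11 libraries (horizontal axis), as log2 relative to the gene's own median, with colours ending at -3 and 3. Control library 1 is the warmest column at 44 of the 46 genes, the DBP columns are warmer than the DiBP columns in most beta A and gamma M genes, and CRYAA, crygmx and CRYGN (ENSDARG00000102129) are at their bluest in combined library 3.

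Most crystallins were lower in DiBP offspring than in controls. With limma over all 11 libraries, 36 of the 46 tested crystallins were lower and 0 higher at an adjusted p under 0.05, when 14.0% of all tested genes were called lower and 15.8% higher. They were 5 of 7 beta A, 3 of 5 beta B, 26 of 28 gamma M, 1 of 2 gamma MX and 1 of 2 gamma N genes, and 0 of 2 alpha genes. Median log2 differences were -2.29 for gamma M, -2.19 for beta A and -1.71 for beta B, with a median of 0.02 over all tested genes. The size of these differences rested on control library 1: without it, 30 were lower and 0 higher, with 8.06% of all genes called lower, and the gamma M median was -0.93. In that fit the lone control is assumed to vary like the libraries of the other groups. With only the 5 libraries of these groups in the fit, 11 were lower, with 7.36% of all genes called lower. In 38 of 46 genes every DiBP library lay below both controls after composition scaling, as in 26.5% of all tested genes.

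The gamma M gene with the highest mean level, crygm2d13, stood at 5734 and 655 FPKM in control libraries 1 and 2, 620.2, 577 and 521 after DBP, 278, 265 and 322 after DiBP, and 390.3, 356 and 195 in combined libraries 1 to 3. The DiBP libraries were below control library 2 and far below control library 1. It fell in DiBP offspring by limma (-2.71 ± 0.62 (SE), adjusted p = 0.00695, a difference on the log2(FPKM + 0.1) scale after division by a composition factor, as for all differences here). Without control library 1 the value was -1.14 ± 0.26 (SE), adjusted p = 0.00833. In crygm2d5, another gene of the cluster, the values were 327 and 48.8 FPKM in control libraries 1 and 2, 43.6, 44.4 and 39.7 after DBP, 18.5, 17.3 and 19.7 after DiBP, and 26.4, 25.6 and 22.1 in combined libraries 1 to 3. All DiBP and combined libraries were below both controls, and the DiBP difference was -2.72 ± 0.52 (SE), adjusted p = 0.00270 with all libraries and -1.34 ± 0.13 (SE), adjusted p = 3.06e-05 without control library 1. It was also called with only the groups compared, at -2.72 ± 0.69 (SE), adjusted p = 0.0414. The cluster gene with the most negative DiBP difference was crygm2d9, at 671 and 97.3 FPKM in control libraries 1 and 2, 61.6, 57.1 and 49.98 after DBP, 29.03, 30.6 and 31.5 after DiBP, and 56.9, 51.7 and 36.4 in combined libraries 1 to 3. Here the DiBP libraries were the lowest of all 11, and the difference was -3.02 ± 0.53 (SE), adjusted p = 0.00172, or -1.63 ± 0.17 (SE), adjusted p = 7.31e-05 without control library 1.

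Among the structural beta A genes, cryba1b measured 1597 and 327 FPKM in control libraries 1 and 2, 254, 239 and 227 after DBP, 147, 142 and 171 after DiBP, and 198, 196 and 145 in combined libraries 1 to 3. Every exposed library was below control library 2. Its DiBP difference was -2.19 ± 0.44 (SE), adjusted p = 0.00364, and without control library 1 it was -1.05 ± 0.14 (SE), adjusted p = 3.88e-04. CRYBA4 gave 2219 and 285 FPKM in control libraries 1 and 2, 174, 160.3 and 179 after DBP, 111, 107 and 126 after DiBP, and 215, 194 and 98.2 in combined libraries 1 to 3, with the DiBP libraries lowest apart from combined library 3. It fell with DiBP by limma (-2.75 ± 0.59 (SE), adjusted p = 0.00527) and also without control library 1 (-1.26 ± 0.28 (SE), adjusted p = 0.00741). Of the beta B genes, crybb1l1 had 1162 and 196 FPKM in control libraries 1 and 2, 125, 113 and 127 after DBP, 79.3, 72.9 and 94.7 after DiBP, and 134, 136 and 92.7 in combined libraries 1 to 3, again with all DiBP libraries below both controls, and differed by -2.50 ± 0.50 (SE), adjusted p = 0.00341.

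CRYGN (ENSDARG00000030411) carried nearly all gamma N signal, at 4360.0 and 523 FPKM in control libraries 1 and 2, 416, 390.0 and 356 after DBP, 214, 199 and 246 after DiBP, and 273, 259.7 and 164 in combined libraries 1 to 3. It was below both controls in all 9 exposed libraries, and lower in DiBP offspring (-2.74 ± 0.59 (SE), adjusted p = 0.00526), also without control library 1 (-1.21 ± 0.20 (SE), adjusted p = 0.00143). The other gene of that name (ENSDARG00000102129) had 64.2 and 7.06 FPKM in control libraries 1 and 2, 7.17, 7.47 and 6.97 after DBP, 6.801, 7.64 and 9.65 after DiBP, and 7.73, 9.504 and 1.81 in combined libraries 1 to 3. Its DiBP libraries lay around control library 2, and its difference did not pass the test (-1.37 ± 0.75 (SE), adjusted p = 0.187). Of the gamma MX genes, crygmxl2 fell with DiBP (-2.40 ± 0.53 (SE), adjusted p = 0.00572) from 1521 and 224 FPKM in the controls to 98.1, 104 and 119 FPKM.

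Fewer crystallins were called between DBP offspring and controls. In the fit of all libraries 12 crystallins were lower than control and 0 higher, when 5.52% of all tested genes were called lower and 9.61% higher. They were 3 of 7 beta A genes (cryba1b, cryba1l1 and CRYBA4), 3 of 5 beta B genes (CRYBB1, crybb1l1 and crybb1l2) and 6 of 28 gamma M genes (crygm2d1, crygm2d3, crygm2d9, crygm2d10, crygm2d14 and crygm2d18). Median log2 differences were -1.49 for gamma M, -1.49 for beta A and -1.50 for beta B, against -0.01 over all tested genes. This count moved with nearly every library. Without control library 1, 2 crystallins were lower (3.82% of all genes) and 2 higher (6.60%), and the gamma M median was -0.20. With only the 5 libraries of these groups limma called 0 (4.46% of all genes in either direction), with 20 lower at an unadjusted p under 0.05, and without control library 2 the count was 42 lower (13.9% of all genes). For the 20 at an unadjusted p, the share of all genes at that p is not given here. Leaving out any 1 of the 9 exposed libraries gave 0 to 7 lower, except 15 without combined library 3. For these fits too the share of all genes is not given here, so a change in all genes cannot be told apart. In 26 of 46 genes all DBP libraries lay below both controls, as in 20.4% of all tested genes.

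CRYBB1, a structural beta B crystallin, gave 2106 and 579 FPKM in control libraries 1 and 2, 373, 359 and 359.8 after DBP, 329, 293 and 361 after DiBP, and 523, 523 and 314 in combined libraries 1 to 3. All DBP libraries lay below control library 2, and the difference was -1.50 ± 0.39 (SE), adjusted p = 0.0224 with all libraries and -0.57 ± 0.20 (SE), adjusted p = 0.0962 without control library 1. Its close relative crybb1l2 measured 2381 and 363 FPKM in control libraries 1 and 2, 253, 242 and 234 after DBP, 204, 191 and 236 after DiBP, and 308, 301 and 176 in combined libraries 1 to 3, also with all DBP libraries below both controls, and its DBP difference was -1.84 ± 0.54 (SE), adjusted p = 0.0377. For crybb1l1 the DBP difference was -1.88 ± 0.50 (SE), adjusted p = 0.0258, and it was still called without control library 1 (-0.59 ± 0.18 (SE), adjusted p = 0.0489). In cryba1l1 the values were 2275 and 298 FPKM in control libraries 1 and 2, 216, 208 and 191 after DBP, 129, 122 and 145 after DiBP, and 183, 167 and 90.2 in combined libraries 1 to 3, lower in every exposed library than in either control. Its DBP difference of -1.91 ± 0.58 (SE), adjusted p = 0.0451 shrank to -0.44 ± 0.25 (SE), adjusted p = 0.306 without control library 1. In crygm2d3 the values were 1314 and 267 FPKM in control libraries 1 and 2, 169, 162 and 121 after DBP, 113, 113 and 129 after DiBP, and 188, 133 and 115 in combined libraries 1 to 3, again lower in every exposed library than in either control, and the DBP difference of -1.89 ± 0.46 (SE), adjusted p = 0.0182 became -0.74 ± 0.22 (SE), adjusted p = 0.0502 without control library 1. For crygm2d9 the DBP difference was -2.09 ± 0.53 (SE), adjusted p = 0.0221, and it was still called without control library 1 (-0.69 ± 0.17 (SE), adjusted p = 0.0240).

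The combined exposure gave 28 crystallins lower than control and 0 higher in the fit of all libraries, when 1.69% of all tested genes were called lower and 1.76% higher. They were 22 of 28 gamma M genes, 3 of 7 beta A, 1 of 5 beta B, 1 of 2 gamma MX and 1 of 2 gamma N genes. Median log2 differences were -2.24 for gamma M, -2.09 for beta A and -1.39 for beta B, against 0.00 over all tested genes. Without control library 1 the count was 19 lower (1.73% of all genes), with a gamma M median of -0.96. With only the 5 libraries of these groups, limma called 0 crystallins and 0 of all genes (0%), with 37 crystallins lower at an unadjusted p under 0.05. The share of all genes at that unadjusted p is not given here, so the 37 cannot be set against it. Leaving out any 1 of the 9 exposed libraries gave 0 to 6 lower crystallins. Shares of all genes called in these fits are not given here, so a change in all genes cannot be told apart. In 37 of 46 genes all combined libraries lay below both controls, as in 14.4% of all tested genes.

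For CRYGN (ENSDARG00000030411) the combined difference was -2.80 ± 0.59 (SE), adjusted p = 0.0276, and -1.27 ± 0.20 (SE), adjusted p = 0.00554 without control library 1. For crygm2d13 it was -2.76 ± 0.62 (SE), adjusted p = 0.0339, and for crygm2d8, another of the abundant cluster genes, it was -2.24 ± 0.50 (SE), adjusted p = 0.0339. The values of crygm2d8 were 4366 and 734 FPKM in control libraries 1 and 2, 642, 720.0 and 595 after DBP, 398, 375 and 391 after DiBP, and 491, 436 and 289 in combined libraries 1 to 3. The means of these deposited values were 653, 405 and 388 FPKM for DBP, combined and DiBP, although combined library 3 was the lowest library. After division by the composition factors, the combined mean was below the DiBP mean. The called gene crygm2b was scarce, at 15.1 and 1.66 FPKM in control libraries 1 and 2, 1.34, 2.14 and 1.37 after DBP, 0.908, 0.650 and 0.997 after DiBP, and 0.119, 0.926 and 0.233 in combined libraries 1 to 3, so that its difference of -3.66 ± 0.77 (SE), adjusted p = 0.0276 rests on few reads (15 in control library 2 and 2 in combined library 3). CRYBB1 and crybb1l2 were not called (-1.39 ± 0.39 (SE), adjusted p = 0.0693, and -1.94 ± 0.54 (SE), adjusted p = 0.0679). The 3 comparisons with control share the same 2 control libraries, so their likeness is not independent evidence.

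DBP offspring had more crystallin RNA than DiBP offspring in most genes. After composition scaling, DBP libraries were above all DiBP libraries in 36 of 46 crystallins, as they were in 22.8% of all tested genes, and below all of them in 2 (CRYAB, ENSDARG00000101380, and crygmx), against 23.4% of all tested genes. The ratio of the means, after scaling for library composition, had a median of 1.62, from 0.605 for crygmx to 3.09 for crygm2d16. Median log2 differences were 0.87 for gamma M, 0.69 for beta A, 0.26 for beta B and -0.34 for the 2 alpha genes, against -0.01 over all tested genes. In the fit of all 11 libraries only 2 crystallins passed, crygm2d16 and crygm2d6, both higher with DBP, when 6.14% of all genes were called higher and 6.15% lower. With only the 6 libraries of these groups, 36 were higher and 2 lower, when 17.5% of all genes were called higher and 17.9% lower. Without control library 1 the count was 29 higher and 0 lower (11.5% and 11.9% of all genes). The difference itself does not involve the controls, which enter the fit of all libraries through their spread. In the fit of all libraries, leaving out any 1 DBP or DiBP library gave 0 or 1 called crystallins. That count has no share of all genes beside it here, so a general loss of calls cannot be told apart. Among the other tissues, exocrine pancreas genes summed to 1452 to 1899 FPKM after DBP and 1023 to 1074 after DiBP, and skeletal muscle genes to 43737 to 48105 and 41291 to 44925 FPKM, and their part in the result was not tested.

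**Figure D3:**
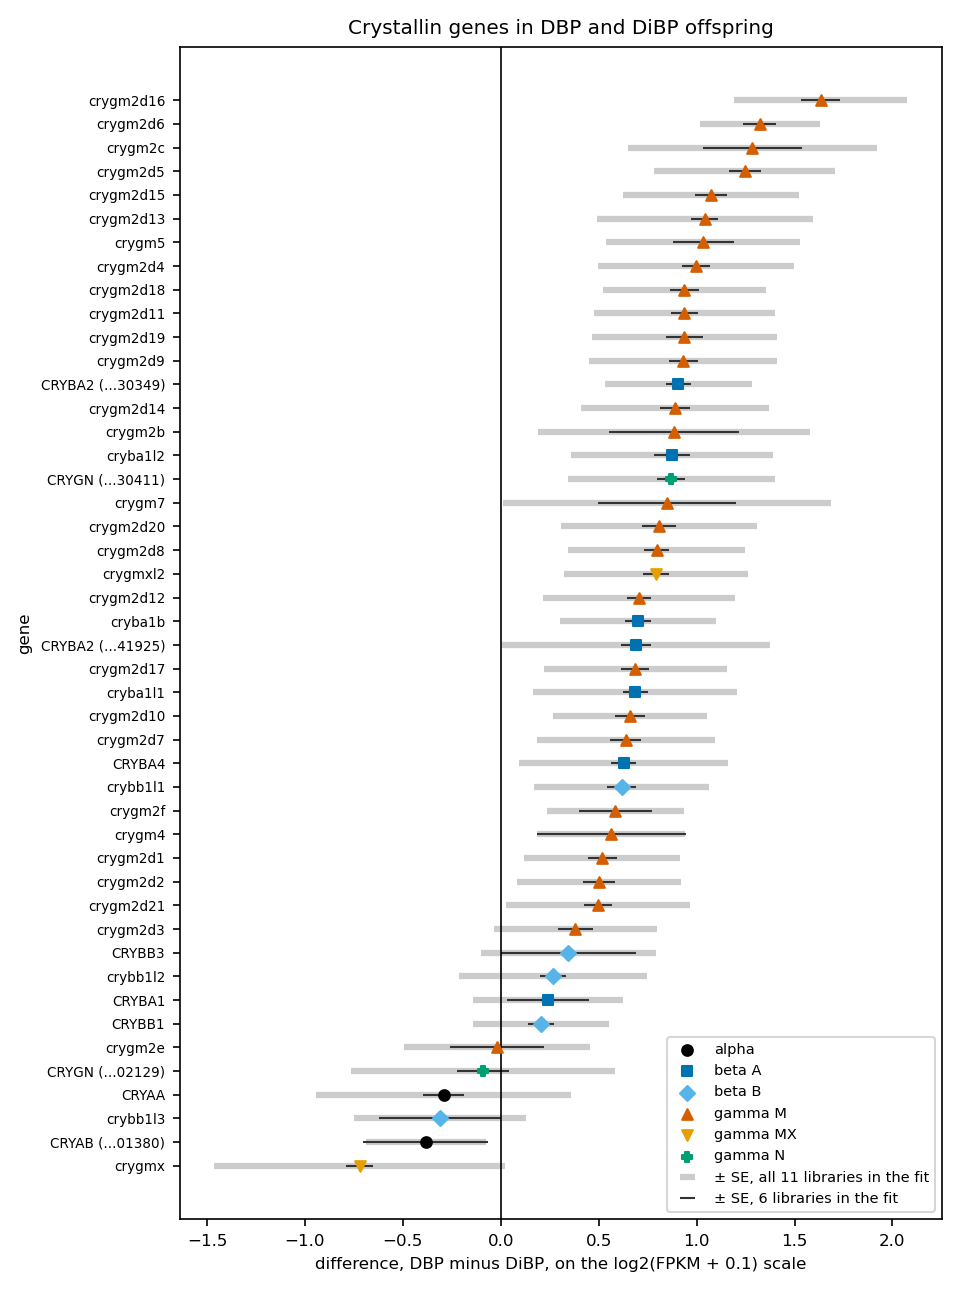
Difference between DBP and DiBP offspring for the 46 tested crystallins (1 row per gene), on the log2(FPKM + 0.1) scale after composition scaling (horizontal axis), with the SE from the fit of all 11 libraries (thick bar) and of the 6 libraries compared (thin bar). Points run from -0.72 for crygmx to 1.63 for crygm2d16, and the thick bars are several times wider than the thin ones for most genes.

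The 2 called genes were neighbours in the gene order of the RefSeq annotation of another assembly (GRCz12tu), inside a run of 31 coding genes from crygm2c to crygs3 that were all crystallins. The deposited values of crygm2d16 were 227 and 38.8 FPKM in control libraries 1 and 2, 82.1, 98.8 and 81.6 after DBP, 24.6, 27.9 and 35.5 after DiBP, and 29.2, 27.8 and 23.6 in combined libraries 1 to 3. The DBP libraries were all above control library 2, and the DiBP and combined libraries were all below it. The DBP minus DiBP difference was 1.63 ± 0.44 (SE), adjusted p = 0.0323, and 1.63 ± 0.10 (SE), adjusted p = 4.47e-11 with the 6 libraries alone. For crygm2d6 the values were 272 and 82.1 FPKM in control libraries 1 and 2, 119, 125 and 101 after DBP, 49.3, 42.5 and 50.4 after DiBP, and 63.3, 58.1 and 58.3 in combined libraries 1 to 3, in the same order. Its DBP minus DiBP difference was 1.32 ± 0.31 (SE), adjusted p = 0.0166, and 1.32 ± 0.09 (SE), adjusted p = 1.25e-10 with the 6 libraries alone. Against control these 2 genes did not pass with DBP (-0.01 ± 0.49 (SE), adjusted p = 0.993, and -0.29 ± 0.34 (SE), adjusted p = 0.613). Without control library 1 they were the 2 crystallins called higher with DBP than in control library 2, at 1.27 ± 0.18 (SE), adjusted p = 9.14e-04, and 0.58 ± 0.15 (SE), adjusted p = 0.0256.

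The other crygm2d genes had smaller ratios. Over the 21 genes crygm2d1 to crygm2d21, with 0 other coding genes between them in that annotation, the DBP to DiBP ratio had a median of 1.85 and a lowest value of 1.31 (crygm2d3). The 5 genes at the crygm2d1 end of these 21 (crygm2d3, crygm2d21, crygm2d10, crygm2d2 and crygm2d1) had ratios of 1.31, 1.42, 1.57, 1.42 and 1.44, while crygm2d13 at the other end had 2.05. The ratios did not run steadily between these ends, with 1.61 for crygm2d17 and 3.09 for crygm2d16. Beyond the ends, crygm2e next to crygm2d13 had 1.01, and crygm2f and crygm5 past crygm2d1 had 1.52 and 2.06. The low ratios at the crygm2d1 end were noticed after the values were seen. Levels within the cluster were far apart: in control library 2 they ran from 38.8 FPKM for crygm2d16 to 736 for crygm2d1. With reads shared between near-identical copies, a difference at 1 copy could be counted partly at another.

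Most beta A genes and 1 of the 2 gamma N genes took the same side as gamma M. CRYBA2 (ENSDARG00000030349) had 1068 and 246 FPKM in control libraries 1 and 2, 245, 215 and 225 after DBP, 122, 118 and 138 after DiBP, and 198, 192 and 130.5 in combined libraries 1 to 3, with no overlap between DBP and DiBP. Its difference between them was 0.91 ± 0.37 (SE), adjusted p = 0.133, and 0.91 ± 0.06 (SE), adjusted p = 2.99e-10 with 6 libraries. For CRYGN (ENSDARG00000030411) it was 0.87 ± 0.53 (SE), adjusted p = 0.304, and 0.87 ± 0.07 (SE), adjusted p = 4.85e-09 with 6 libraries. CRYBB1 differed less between the isomers, at 0.20 ± 0.35 (SE), adjusted p = 0.739, and 0.20 ± 0.07 (SE), adjusted p = 0.0186 with 6 libraries, and its lowest DBP and highest DiBP values were 359.0 and 361 FPKM as deposited. After composition scaling, every DBP library of CRYBB1 lay above every DiBP library.

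**Figure D4:**
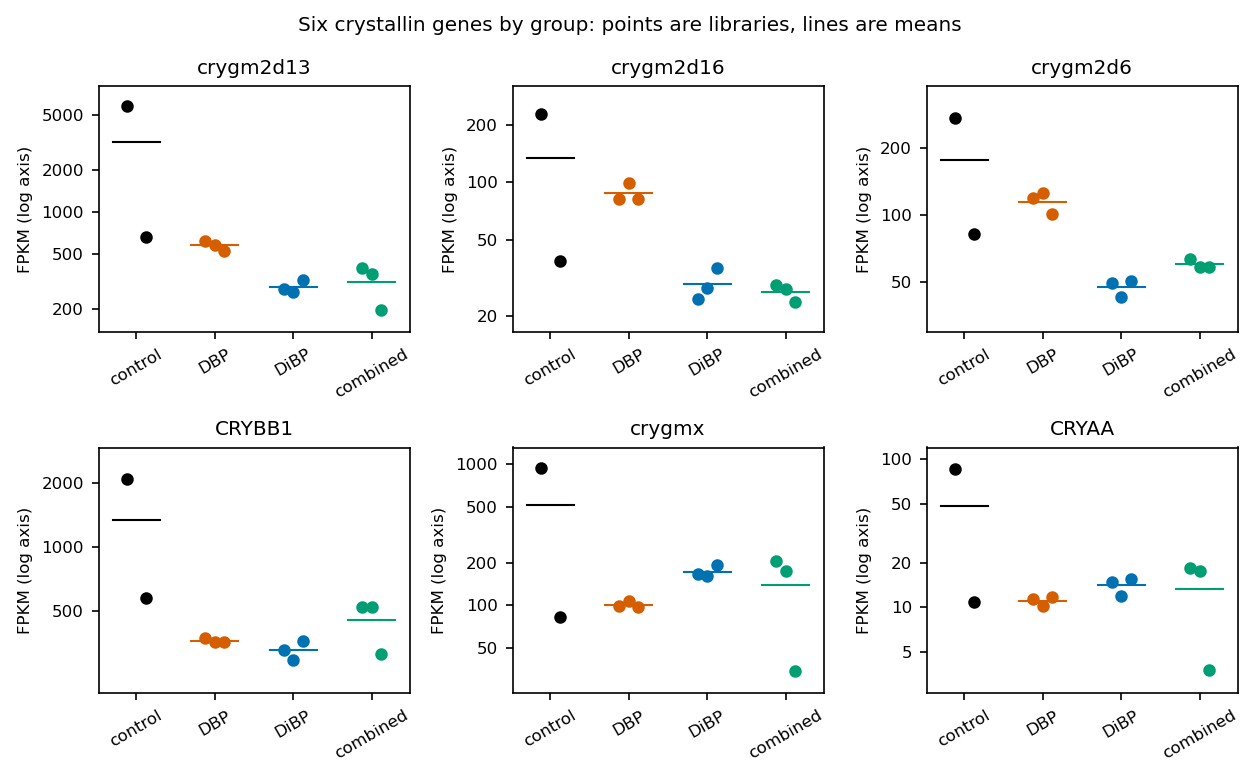
Deposited FPKM (log axis) of 6 crystallin genes by group (horizontal axis), with a point per library and a line at the group mean. In crygm2d16 the DBP libraries (82.1, 98.8 and 81.6 FPKM) stand above control library 2 (38.8 FPKM), in crygmx the DiBP libraries stand above the DBP libraries, and in crygmx and CRYAA combined library 3 is the lowest library.

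CRYAA, crygmx and CRYGN (ENSDARG00000102129) were among the crystallins that did not follow this order. CRYAA, the alpha crystallin of the lens, had 85.96 and 10.9 FPKM in control libraries 1 and 2, 11.5, 10.2 and 11.7 after DBP, 14.8, 12.02 and 15.7 after DiBP, and 18.6, 17.7 and 3.75 in combined libraries 1 to 3. It lay between 10.2 and 18.6 FPKM in 9 libraries, and in combined library 3 it was 4.84-fold below the mean of its 2 partners. Its DBP minus DiBP difference was -0.29 ± 0.65 (SE), adjusted p = 0.809, and -0.29 ± 0.10 (SE), adjusted p = 0.0341 with 6 libraries. The gamma MX gene crygmx had 935 and 82.8 FPKM in control libraries 1 and 2, 98.6, 107 and 97.9 after DBP, 166, 159.9 and 194 after DiBP, and 205, 175 and 33.96 in combined libraries 1 to 3, with every DiBP library above every DBP library and combined libraries 1 and 2 as high as DiBP. Its DBP minus DiBP difference was -0.72 ± 0.74 (SE), adjusted p = 0.562, and -0.72 ± 0.07 (SE), adjusted p = 6.03e-08 with 6 libraries. CRYAA, crygmx and this CRYGN gene were 4.76-fold to 5.60-fold lower in combined library 3 than in its partners, while the median over the 46 crystallins was 1.59-fold, all from deposited FPKM. CRYAB (ENSDARG00000101380), crybb1l3 and crygm2e did not follow the order either, with DBP to DiBP ratios of 0.692, 0.765 and 1.01. Their falls in combined library 3 were smaller, at 1.67-fold, 2.15-fold and 2.097-fold.

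Against DBP alone, the combined exposure gave 3 lower crystallins (crygm2b, crygm2d6 and crygm2d16) and 0 higher in the fit of all libraries, when 20.1% of all tested genes were called in either direction. With only the 6 libraries of these groups 27 were lower (14.5% of all genes), namely 20 gamma M, 5 beta A, 1 gamma MX and 1 gamma N genes, and without control library 1 the count was 31 (17.5%). The medians were -0.75 for gamma M, -0.60 for beta A and -0.18 for beta B (0.09 without combined library 3), against 0.00 over all tested genes. In 28 of 46 genes all combined libraries lay below all DBP libraries, as they did in 23.0% of all tested genes. For crygm2d16 the difference was -1.87 ± 0.44 (SE), adjusted p = 0.0121, and for crygm2d6 it was -1.10 ± 0.31 (SE), adjusted p = 0.0256. For crygm2b it was -2.13 ± 0.69 (SE), adjusted p = 0.0476, with at most 18 reads in a DBP library.

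Between the combined exposure and DiBP alone, 0 of 46 crystallins were called in the fit of all libraries, against 24.0% of all tested genes in either direction. By limma 1 was higher at an unadjusted p under 0.05, and voom on the recovered reads called 0. The share of all genes at that unadjusted p is not given here. With only the 6 libraries of these groups 3 were higher (crybb1l1, crygm2d5 and crygm2d9) and 1 lower (crygm2e), against 13.9% and 16.3% of all genes, and without control library 1, 4 were higher and 2 lower (16.1% and 18.4%). Combined libraries lay above all DiBP libraries in 4 crystallins, against 22.3% of all tested genes, and below them in 1, against 23.5%. The median difference was 0.17 for gamma M, 0.04 for beta A and 0.16 for beta B. When combined library 3 was left out together with control library 1, 22 crystallins were higher with the combined exposure and 1 lower (19.8% and 21.7% of all genes). The difference for crygm2d13 was -0.05 ± 0.55 (SE), adjusted p = 0.959 and for CRYBB1 it was 0.32 ± 0.35 (SE), adjusted p = 0.551, each smaller than its SE.

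Combined library 3 was the lowest of the 11 libraries at 25 of 46 crystallins after composition scaling, against 10.9% of all tested genes. On that scale, with 0.1 FPKM added, it was at least 2-fold below the mean of its partners at 6 (CRYAA, CRYBA1, cryba1l2, CRYBA2 ENSDARG00000041925, crygmx and CRYGN ENSDARG00000102129), against 3.76% of all tested genes. None of the 28 gamma M genes was among them. Of the 29 tested lens list genes that are no crystallins, 11 were at least 2-fold below on that scale. As deposited, without scaling, CRYBA4 (2.08-fold), crybb1l3 (2.15-fold), crygm2b (2.24-fold) and crygm2e (2.097-fold) also passed 2-fold. CRYBA2 (ENSDARG00000041925) had 1559.9 and 114 FPKM in control libraries 1 and 2, 107, 102 and 88.1 after DBP, 57.6, 59.8 and 73 after DiBP, and 79.9, 70.8 and 27.4 in combined libraries 1 to 3, and cryba1l2 had 56.2 and 8.35 FPKM in control libraries 1 and 2, 14.4, 14.4 and 14.9 after DBP, 7.22, 8.07 and 9.33 after DiBP, and 9.06, 9.78 and 3.79 in combined libraries 1 to 3. In both, combined library 3 was the lowest value and the DBP libraries were above the DiBP libraries.

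Of the 29 tested genes of the lens list, which code for other proteins, the DBP libraries were above all DiBP libraries in 9, below all of them in 4 and overlapped them in 16, against 22.8% above and 23.4% below of all tested genes. The 5 genes described first were chosen after their values were seen, and they do not stand for the list. MIP, the water channel of fibre cell membranes (ENSDARG00000013963), had 70.8 and 5.12 FPKM in control libraries 1 and 2, 7.97, 7.18 and 6.53 after DBP, 10.73, 10.7 and 12.9 after DiBP, and 15.9, 14.2 and 2.75 in combined libraries 1 to 3, with DiBP above DBP and the lowest value in combined library 3, as in crygmx. GRIFIN, a lens protein of the galectin family, had 14.4 and 2.13 FPKM in control libraries 1 and 2, 2.45, 2.32 and 2.33 after DBP, 4.02, 3.14 and 4.82 after DiBP, and 4.58, 4.81 and 1.105 in combined libraries 1 to 3, in the same order. The fibre membrane protein LIM2 (ENSDARG00000015445) had 81.03 and 10.4 FPKM in control libraries 1 and 2, 12.8, 12.3 and 11.9 after DBP, 11.6, 12.4 and 14.6 after DiBP, and 15.1, 13.6 and 3.82 in combined libraries 1 to 3, level between DBP and DiBP and low in combined library 3. BFSP2, a protein of the beaded filament that is the cytoskeleton of fibre cells, instead had 208 and 19.7 FPKM in control libraries 1 and 2, 17.01, 15.2 and 13.6 after DBP, 9.296, 8.85 and 10.2 after DiBP, and 15.1, 14.8 and 7.29 in combined libraries 1 to 3, with DBP above DiBP as in most gamma M genes. LGSN, the lens protein lengsin, had 105 and 12.7 FPKM in control libraries 1 and 2, 9.71, 10.8 and 8.64 after DBP, 5.39, 5.43 and 6.02 after DiBP, and 10.4, 9.096 and 5.17 in combined libraries 1 to 3, in the order of BFSP2. CAPN3 (ENSDARG00000041864) and dnase1l1l also had every DBP library above every DiBP library and the lowest value in combined library 3. Their DBP to DiBP ratios were 1.69 and 1.38. The second MIP gene (ENSDARG00000037285), lim2.1 and the second LIM2 gene (ENSDARG00000041295) had overlapping DBP and DiBP libraries, with DBP to DiBP ratios of 0.905, 0.979 and 0.891. In combined library 3 these genes were 2.86-fold, 4.17-fold and 2.52-fold lower than in its partners, and the first LIM2 gene was 3.76-fold lower. In lim2.2 the ratio was 1.06 and combined library 3 was higher than its partners, with a ratio of partners to library of 0.699. MAF (ENSDARG00000076520), a transcription factor, had a DBP to DiBP ratio of 0.599 but was only 1.70-fold lower in combined library 3.

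With the 6 libraries of DBP and DiBP alone, BFSP2 and LGSN were higher with DBP, by 0.73 ± 0.08 (SE), adjusted p = 8.43e-07, and 0.83 ± 0.10 (SE), adjusted p = 1.14e-06, while MIP (ENSDARG00000013963) and GRIFIN were lower, with differences of -0.61 ± 0.10 (SE), adjusted p = 4.65e-05, and -0.66 ± 0.15 (SE), adjusted p = 0.00194. In the fit of all libraries none of these 4 passed. Of the 29 tested genes of that lens list, 10 were higher and 3 lower with DBP in the 6-library fit, against 17.5% and 17.9% of all genes, and 1 was higher and 0 lower in the fit of all libraries. Called in the larger fit was PAX6 (ENSDARG00000045936), a transcription factor of eye, brain and pancreas (0.30 ± 0.09 (SE), adjusted p = 0.0406).

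**Figure D5:**
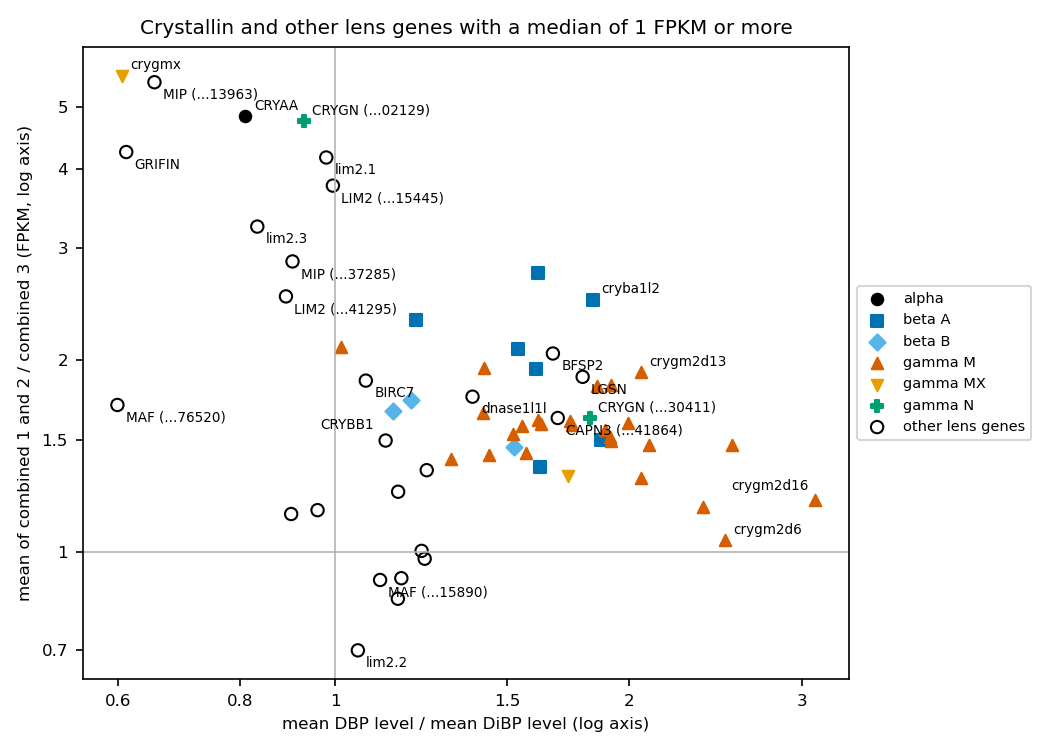
Ratio of mean DBP to mean DiBP level after composition scaling (horizontal log axis) against the ratio of deposited FPKM in combined libraries 1 and 2 to that in combined library 3 (vertical log axis), for 40 crystallins and 24 other genes of the lens list with a median of 1 FPKM or more. Points at the upper left are crygmx, CRYAA and CRYGN (ENSDARG00000102129) with both MIP genes, GRIFIN, lim2.1, lim2.3 and both LIM2 genes. Other lens list genes are spread down to 0.699 for lim2.2, and the gamma M genes lie to the right, with crygm2d16 at 3.09.

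Against control, DiBP offspring had 6 of the 29 lens list genes lower and 1 higher in the fit of all libraries, against 14.0% and 15.8% of all tested genes. This count moved with the libraries in the fit. With only the groups compared it was 1 lower and 0 higher, when 7.36% of all tested genes were called lower, so the list did not exceed that share. The 4 with the smallest p were BIRC7, an inhibitor of apoptosis (-1.89 ± 0.38 (SE), adjusted p = 0.00356), LGSN (-2.64 ± 0.60 (SE), adjusted p = 0.00688), BFSP2 (-2.71 ± 0.67 (SE), adjusted p = 0.0103) and dnase1l1l, a nuclease that clears DNA from zebrafish lens fibres (-1.67 ± 0.52 (SE), adjusted p = 0.0286). BIRC7 measured 17.7 and 6.06 FPKM in control libraries 1 and 2, 2.45, 3.23 and 2.598 after DBP, 3.07, 2.51 and 2.38 after DiBP, and 3.96, 3.85 and 2.104 in combined libraries 1 to 3, lower in every exposed library than in either control. BIRC7, LGSN and BFSP2 were the 3 still called lower with DiBP without control library 1 (-1.12 ± 0.33 (SE), adjusted p = 0.0305, for BIRC7), while dnase1l1l was not (-0.41 ± 0.27 (SE), adjusted p = 0.342). With only the groups compared the BIRC7 call was kept (adjusted p = 0.0312 by limma), and LGSN, BFSP2 and dnase1l1l had adjusted p of 0.0575, 0.0700 and 0.115. In the fit of all libraries BIRC7 was also the lens list gene called lower with DBP (-1.79 ± 0.38 (SE), adjusted p = 0.00933, when 5.52% of all tested genes were called lower) and with the combined exposure (-1.74 ± 0.38 (SE), adjusted p = 0.0316, when 1.69% were). Neither call held without control library 1 (-1.02 ± 0.33 (SE), adjusted p = 0.0654, and -0.97 ± 0.33 (SE), adjusted p = 0.131) or with only the groups compared (adjusted p = 0.0613 and 0.382). Without control library 2 the only control left was library 1, where this list summed to 1229 FPKM against 325 in control library 2. Counts of this list in that fit rest on 1 control library and are not given here. The combined exposure against DiBP called 3 of the 29 lens list genes, all higher and all transcription factors also used outside the lens: PAX6 (ENSDARG00000045936, 0.44 ± 0.09 (SE), adjusted p = 0.00304) and both SIX3 genes (ENSDARG00000054879, 0.52 ± 0.12 (SE), adjusted p = 0.00769, and ENSDARG00000058008, 0.65 ± 0.15 (SE), adjusted p = 0.00926). Of all 19465 tested genes, 2170 were called higher and 2505 lower there, so the list did not exceed the share of all genes. Photoreceptor genes, which share the eye with the lens, summed to 2844 to 3837 FPKM in the combined libraries, 2276 to 2390 after DBP and 2131 to 2393 after DiBP, an order unlike that of the gamma M genes, and their part in the lens values was not tested.

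The 10 crystallins with too few reads to test were CRYAB (ENSDARG00000042621), CRYBB2, both CRYGS genes, crygs3, crygs4, crygm1, crygm2a, crygm3 and crygmxl1. None exceeded 3.82 FPKM or 39 reads in a library. The highest, crygm1, had 3.82 and 0.548 FPKM in the controls and at most 0.589 FPKM in an exposed library. Of the 2 CRYGS genes, which in mammals code for an abundant lens protein, ENSDARG00000041171 was listed at 0 in 10 of the 11 libraries. CRYAB (ENSDARG00000101380), a small heat shock protein also made in muscle and other tissues in mammals, passed the filter at 0.154 and 0.251 FPKM in control libraries 1 and 2, 0.202, 0.162 and 0.254 after DBP, 0.257, 0.393 and 0.277 after DiBP, and 0.162, 0.368 and 0.159 in combined libraries 1 to 3, with 6 to 16 reads a library, and its DiBP difference from control did not pass the test (0.47 ± 0.34 (SE), adjusted p = 0.316). No tested crystallin reached the read minimum through 1 group alone.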

How the data were processed

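The authors deposited 1 FPKM value per gene and library. Per the submitters' processing notes, HISAT2 2.1.0, HTSeq 0.6.0 and the build GRCz10 were used. Per the labels' protocols, 3 µg of Trizol-extracted RNA per sample went into libraries read as 150 bp pairs. The strand setting and the handling of multiply matching reads are not given in the sources used here. Values of near-identical and overlapping genes are therefore uncertain. The series speaks of triplicates, and 1 further control was not analysed here.

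Dividing the FPKM values by the worth of 1 read gave whole read numbers for 100% of genes (each of 263531 values above 0 lay within 9.68e-05 reads of a whole number, with a limit of 1e-06 to 0.000244 reads set by the printed digits, and library totals within 0.00123). These numbers were used for depth, filter and scaling. Each gene length was taken as the smallest whole number that met this limit, so the closeness is no independent check of the read numbers. A gene was tested with the CPM of 10 reads in 2 or more libraries and 15 reads in total, which left out 8160 genes. The design had foreseen FPKM values. The test was limma (3.58.1, R 4.3.3) on log2(deposited FPKM / TMM factor + 0.1), all 11 libraries in 1 fit, variances moderated along mean log2 CPM (7 residual and 5.22 prior degrees of freedom), two-sided, with Benjamini-Hochberg adjustment over all 19465 genes in each of 6 comparisons. The pseudocount makes differences of low genes smaller. On simulated data of this layout, with the same spread set for every group, the test called 100% of genes changed 4-fold and 24% of those changed 2-fold for DiBP against control, with 2 unchanged genes called. For DBP against DiBP it called 100% and 33%, with 7 unchanged genes called. The simulated controls were alike, so these rates do not describe the test on 2 controls as unlike as those here. The changed genes were drawn only from those above a minimum mean read number. The scarcest tested crystallins, such as CRYAB (ENSDARG00000101380), lie below it, so the rates do not describe them.

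The crystallins and gene lists were chosen with earlier results of these data known. Named genes were every tested alpha and gamma N gene, the 3 highest beta A, beta B, gamma M and gamma MX genes, and up to 4 called genes per comparison with the smallest adjusted p. Other genes were named as extremes or after their values were seen. A rule naming the gamma M pairs most alike in protein could not be applied without sequences. Gene order came from RefSeq (GRCz12tu), used for neighbours only. Alternatives changed the scaling (RLE, or values as deposited), the filter (none, or a mean CPM of at least 5), the pseudocount (0.01 or 1), the test (voom), the block (replicate number) and the libraries in the fit (those of the groups compared, all but 1 in turn, or all but the 2 that stood apart). The 9 exposed libraries alone and a trend on mean log2 FPKM were added after seeing the data. Plots used Matplotlib 3.10.9 (Python 3.11.15).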

Additional observations from a re-analysis of the deposited data

How the results depend on the processing

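The 2 controls limit every comparison with control, and p-values of the fit of all libraries carry their spread into the comparisons between exposures. The counts of called crystallins moved by more than 1.5 times in the settings below, and the cause was not tested. Calls among all 19465 tested genes moved too. With only the groups compared, 2946 became 869 for DBP, 5807 became 3308 for DiBP and 671 became 0 for the combined exposure, each against control. For DBP against DiBP 2392 became 6873, and for the combined exposure 3915 became 5026 against DBP and 4675 became 5893 against DiBP. For most other settings below such numbers are not given, so their counts do not tell a change in crystallins from a change in all genes. For DBP against control, the 12 called became 19 with values as deposited, 4 with no filter, 7 with a pseudocount of 1, 7 with the trend on mean log2 FPKM, 0 with only the groups compared and 20 (16 lower) with both apart libraries left out. For DiBP against control, 36 became 11 with only the groups compared. For the combined exposure against control, 28 became 1 with no filter, 14 with a pseudocount of 1, 11 with the trend on mean log2 FPKM, 17 with the replicate block and 0 with only the groups compared. For DBP against DiBP, 2 became 1 with no filter, 38 with only the groups compared, 37 with both apart libraries left out and 29 with the 9 exposed libraries alone. The 3 called between the combined exposure and DBP became 1, 27, 33 and 31 in those settings, and the 0 called between it and DiBP became 4, 23 and 6 in the last 3 of them.

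Leaving out each library in turn gave 0 to 42 for DBP against control, 30 to 43 for DiBP against control, 0 to 42 for the combined exposure against control, 0 to 29 for DBP against DiBP, 0 to 31 between the combined exposure and DBP, and 0 to 6 between it and DiBP. The replicate block gave 9, 34, 17, 2, 3 and 0 in the order of these comparisons. Deviations of same-numbered libraries correlated by -0.034 to 0.136 over 15 pairs, and the best correlation was with a library of the same number for 6 of 11. How many would do so if the numbers meant nothing was not computed, and whether the numbers mark a shared handling was not tested.

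Some differences that were not called in the fit of all libraries turned sign. For DBP against control, crygm2d6 ran from -1.15 without control library 2 to 0.58 without control library 1, and crygm2d16 from -1.29 to 1.27, and the higher values also held with both apart libraries left out. With both apart libraries left out, crygmx was 0.39 with DBP, 1.11 with DiBP and 1.095 with the combined exposure against control, and 0.71 for the combined exposure against DBP. CRYAA was 0.42 with DiBP and 0.64 with the combined exposure against control, and 0.51 for the combined exposure against DBP. The differences of cryba1l1 and crygm2d13 between the combined exposure and DiBP were 0.26 and 0.23. Of 3228 values of named genes under all alternatives, 2679 kept their direction and side of the threshold, and of 810 class medians 753 moved by less than the spread between libraries. Of these medians 25 changed sign, 8 of them by more than that spread, all against control and all of the alpha or gamma MX class, each of 2 tested genes. Without control library 1 the gamma MX median turned from -1.49 to 0.08 with DBP and from -1.52 to 0.05 with DiBP, and the alpha median from -0.30 to 0.33 with DiBP, and these 3 values also held with both apart libraries left out. With both left out, the combined exposure gave 0.14 in place of -1.88 for gamma MX and 0.28 in place of -0.77 for alpha. The other 17 had main values of at most 0.40 in size. Among them, without combined library 3, the alpha, beta B and gamma MX medians between the combined exposure and DBP turned from -0.13, -0.18 and -0.39 to 0.29, 0.09 and 0.05, and the gamma MX and gamma N medians between it and DiBP from -0.36 and -0.40 to 0.09 and 0.05. The beta A median between the combined exposure and DiBP was -0.17 without combined library 1.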
